A study of Mus musculus with 11 samples.

Results

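MHC class II presentation was followed through 6 genes: H2-Aa, H2-Ab1 and H2-Eb1, which encode chains of the class II molecules, Cd74 and H2-DMa, which encode chaperone proteins of the pathway, and Ciita, which encodes its regulator. The genes were chosen by name, and every probe set on the array annotated to 1 of them and to no other gene was taken, which gave 14 probe sets among 34945 with a single gene symbol. Of 18193 genes with such a probe set, 14795 passed a filter on low values and were tested, all 6 class II genes among them.

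RNA was measured on 11 Affymetrix arrays of CD8+ T cells from pmel-1 mice, which carry a transgenic T cell receptor for a peptide of the melanocyte protein gp100. All cells were enriched either as CD44- (naive) or as CD44+ (central memory) cells, stimulated on plate-bound CD3/CD28, restimulated a week later with allogeneic feeder cells carrying the hgp100(25-33) peptide, and grown for 2 weeks in 10 cetus units of IL2. Naive-derived stimulated cells (3 arrays) had a final 4 h on CD3/CD28 and naive-derived unstimulated cells (2 arrays) had none, and memory-derived stimulated cells (3 arrays) and memory-derived unstimulated cells (3 arrays) were treated in the same 2 ways, in 3 independent experiments. The labels do not give the strain or cell type of the feeders, whether any were left when RNA was taken, or the age of the mice. In such bulk samples, fewer cells of a type and less RNA per cell cannot be told apart.

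A class II molecule is a pair of an alpha and a beta chain that carries peptides from ingested proteins to the surface, where CD4+ T cells read them. The invariant chain, encoded by Cd74, blocks the groove during transport, endosomal proteases degrade it, and H2-DM exchanges its last fragment for peptide. B cells, dendritic cells and macrophages are the usual class II cells of the mouse, whereas mouse T cells are generally described as making little or none. Ciita binds no DNA itself and acts through factors bound to the X and Y boxes of class II promoters.

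The promoter windows of the chain genes are shown because these boxes are what the factors described further on bind. RefSeq tables of build GRCm38.p6 held windows, from 250 bases before to 50 bases after the start site, for 3 of the 6 genes: H2-Aa, H2-Eb1 and H2-DMa. H2-Ab1, Cd74 and Ciita are named only. The H2-Aa window lies at chr17:34287774-34288073 on the minus strand and the H2-Eb1 window at chr17:34305617-34305916 on the plus strand. Both are written 5′ to 3′, and capitals mark the Y box CTGATTGG in both, the X2 box TGACGTCA in H2-Aa and the X box core TAGCAAC in H2-Eb1.
H2-Aa: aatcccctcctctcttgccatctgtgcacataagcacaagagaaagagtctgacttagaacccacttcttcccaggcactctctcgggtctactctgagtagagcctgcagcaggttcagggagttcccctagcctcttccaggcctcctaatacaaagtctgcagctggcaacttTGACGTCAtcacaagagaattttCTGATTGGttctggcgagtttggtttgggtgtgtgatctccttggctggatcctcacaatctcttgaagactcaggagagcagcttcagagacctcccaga
H2-Eb1: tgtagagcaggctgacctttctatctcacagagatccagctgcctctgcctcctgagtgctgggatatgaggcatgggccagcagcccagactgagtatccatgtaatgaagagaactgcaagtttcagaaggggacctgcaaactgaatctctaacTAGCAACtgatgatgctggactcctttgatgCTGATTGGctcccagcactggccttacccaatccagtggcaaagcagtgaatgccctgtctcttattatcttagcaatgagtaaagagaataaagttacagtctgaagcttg
The Y box began 51 bases before the start site in H2-Aa and 62 bases before it in H2-Eb1. The X2 box of H2-Aa began 74 bases before the start site, and the X box core of H2-Eb1 began 93 bases before it. Searched on both strands, the Y box letters occurred in 4.1% of 32851 promoter windows of the same length, the X box core in 3.66% and the X2 box in 1.79%, and none of the motifs overlapped another in these windows. Neither of the 2 H2-DMa windows held any of these letters, which says only that they are not in those windows.

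All values below are deposited values converted to a log2 scale. The deposited log base was inferred from the values, and every fold rests on it. On the log2 scale every array has a median of 1.84, a 75th percentile of 3.5 and a maximum of 15.15. The filter level, the 40th percentile of each array, was 1.54. One array, memory-derived unstimulated replicate 3, stood apart: on the first principal component, which held 56.5% of the variance, it scored 77.4, against 40.3 and 50.4 for the other arrays of its group and -37.5 to -11.6 for the rest. Any 2 arrays had the same value at 0.0133% to 0.071% of probe sets, so no array was a copy of another. As to the labelled cell type, 8 of 8 measured CD8 T cell markers lay above the filter level on every array. Of the 3 listed CD4 and regulatory T cell markers, Cd4 lay below it on every array, Foxp3 above it on 4 arrays and Zbtb7b above it on all 11.

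The class II genes lay between the bottom and the upper middle of the array. Of the 14 probe sets, 6 lay above the filter level on all 11 arrays, 5 on some and 3 on none. Cd74 lay between the 56.2 and 76.5 percentiles of its array, with a median of 67.7, the main H2-Ab1 probe set between 54.7 and 74.1, with a median of 71.6, and the main H2-DMa probe set between 42.9 and 74.6, with a median of 69. Ciita lay lower, between 41.9 and 57.4, and H2-Aa (16.5 to 50.3) and H2-Eb1 (10.4 to 57.2) crossed the filter level. These percentiles describe each probe set on its arrays and do not order the genes by amount of RNA, since probe sets differ in their response.

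**Figure D1:**
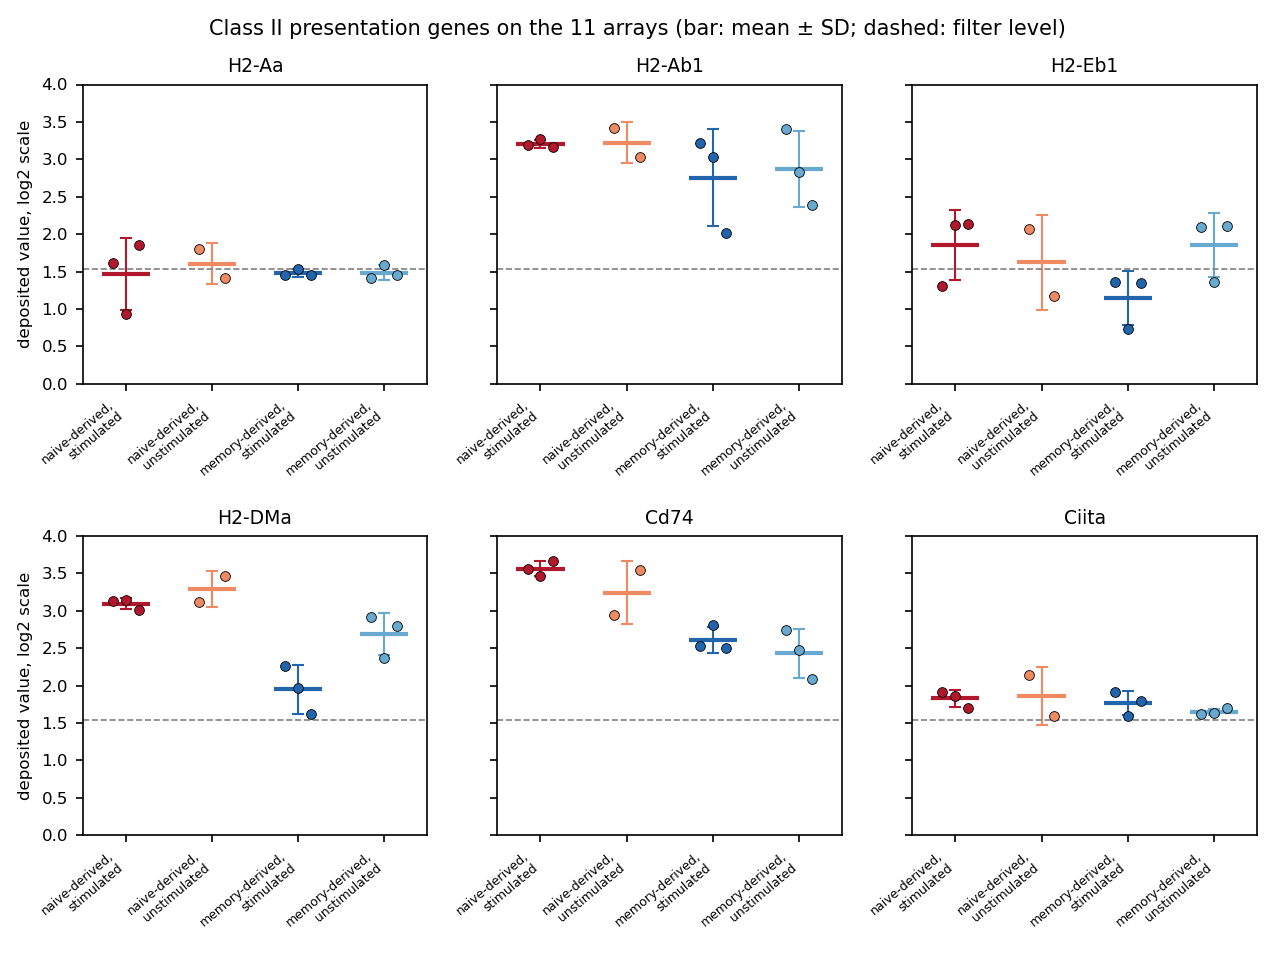
Deposited values (log2 scale, y axis) of the 6 class II genes on each of the 11 arrays, by group (x axis), 1 point per array, with the group mean and SD; the dashed line is the filter level of 1.54. Cd74 lies higher on all 5 naive-derived arrays (2.94 to 3.67) than on all 6 memory-derived arrays (2.09 to 2.81), and H2-Aa and H2-Eb1 scatter about the filter level.

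Among the chain genes, no difference between groups passed the test. H2-Ab1, the beta chain of I-A, was represented by the probe set 1450648_s_at. It read 3.19, 3.27 and 3.16 on the naive-derived stimulated arrays and 3.41 and 3.03 on the naive-derived unstimulated ones. It read 3.22, 3.03 and 2.02 on the memory-derived stimulated arrays and 3.40, 2.83 and 2.38 on the memory-derived unstimulated ones. The naive-derived arrays thus kept within a narrow range, the memory-derived arrays spread more widely, down to 2.02, and the groups overlapped. The naive-derived minus memory-derived difference was 0.45 in stimulated cells (limma adjusted p = 0.527, 95% interval -0.23 to 1.13) and 0.35 in unstimulated cells (limma adjusted p = 0.514, 95% interval -0.41 to 1.11), so differences of either sign were within the error.

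H2-Eb1, the beta chain of I-E, had the single probe set 1417025_at and was above the filter level on 5 of 11 arrays. It read 1.31, 2.12 and 2.13 on the naive-derived stimulated arrays and 2.07 and 1.18 on the naive-derived unstimulated ones. On the memory-derived arrays it read 1.36, 0.73 and 1.34 with stimulation and 2.10, 1.36 and 2.11 without. All 3 memory-derived stimulated arrays therefore lay below the filter level. Memory-derived unstimulated replicate 2, naive-derived stimulated replicate 1 and naive-derived unstimulated replicate 2 did too. With the memory-derived stimulated arrays set at the filter level, the group means differed by 0.32 (log2), stimulated lower, in memory-derived cells. The fitted difference was -0.72 (limma adjusted p = 0.113, 95% interval -1.41 to -0.02) and did not pass, although it did without memory-derived unstimulated replicate 2 (limma adjusted p = 0.0484). Between origins in stimulated cells the same calculation gave 0.31, naive-derived higher, and the fitted difference of 0.71 did not pass (limma adjusted p = 0.296), with groups that overlapped.

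H2-Aa, the alpha chain of I-A, had 4 probe sets, all near or below the filter level. Its representative, 1438858_x_at, ranged over the 11 arrays between 0.93 and 1.85, both on naive-derived stimulated arrays, and was above the filter level on 5 of them. Its 4 group means lay between 1.47 and 1.60. None of its fitted differences exceeded 0.14 in size (limma adjusted p = 0.760 or more), and none of its other probe sets passed any comparison when all probe sets were tested as separate features.

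The chaperone genes differed between origins. Cd74 had the single probe set 1425519_a_at. It read 3.55, 3.47 and 3.67 on the naive-derived stimulated arrays, against 2.53, 2.81 and 2.50 on the memory-derived stimulated arrays. Without the final stimulation it read 2.94 and 3.54 on the naive-derived arrays, against 2.74, 2.48 and 2.09 on the memory-derived ones. Every naive-derived array was above every memory-derived array, with and without stimulation. Cd74 was 1.93-fold higher in naive-derived than in memory-derived stimulated cells (95% interval 1.43 to 2.61, log2 difference 0.95, SE 0.20, limma adjusted p = 0.0235), and 1.75-fold higher in naive-derived than in memory-derived unstimulated cells (95% interval 1.25 to 2.45, log2 difference 0.81, SE 0.22, limma adjusted p = 0.0209).

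Both Cd74 calls depended on single arrays. In stimulated cells the adjusted p rose to between 0.0503 and 0.0904 without any 1 of the 3 naive-derived arrays or without memory-derived replicate 1 or 3, while the difference stayed between 0.90 and 1.05. In unstimulated cells the difference was 0.51 (limma adjusted p = 0.213) without naive-derived replicate 2, and 0.63 (limma adjusted p = 0.0585) without memory-derived replicate 3, the array that stood apart. Neither call held under control scaling (limma adjusted p = 0.116 in stimulated and 0.103 in unstimulated cells) or with experiments 1 and 2 only (0.142 and 0.0933), and the second did not hold with only the groups compared (0.0761). The final stimulation itself did not move Cd74 past the test: its stimulated minus unstimulated difference was 0.32 in naive-derived cells (limma adjusted p = 0.762) and 0.17 in memory-derived cells (limma adjusted p = 0.552).

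H2-DMa, the alpha chain of the peptide exchange factor H2-DM, was represented by 1422527_at. It read 3.13, 3.14 and 3.01 on the naive-derived stimulated arrays, against 2.27, 1.96 and 1.62 on the memory-derived stimulated arrays. Unstimulated, it read 3.12 and 3.46 on the naive-derived arrays, against 2.91, 2.37 and 2.79 on the memory-derived ones. The memory-derived stimulated arrays were the lowest 3 of the 11 and overlapped no other group. H2-DMa was 2.21-fold higher in naive-derived than in memory-derived stimulated cells (95% interval 1.65 to 2.96, log2 difference 1.14, SE 0.19, limma adjusted p = 0.00802), a call that held in all 11 fits that left out 1 array but not with experiments 1 and 2 only (1.02, limma adjusted p = 0.0813). In unstimulated cells the origin difference was 0.60 and did not pass (limma adjusted p = 0.0633).

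With stimulation H2-DMa fell by 0.74 on the log2 scale in memory-derived cells, 1.67-fold (SE 0.19, limma adjusted p = 0.0131). That call was lost without memory-derived stimulated replicate 3 (-0.58, limma adjusted p = 0.0528) or memory-derived unstimulated replicate 1 (-0.63, limma adjusted p = 0.0508), and it held without the array that stood apart (-0.69, limma adjusted p = 0.0463). Control scaling (-0.77, limma adjusted p = 0.0509) and experiments 1 and 2 only (-0.53, limma adjusted p = 0.144) also ended it. In naive-derived cells the stimulated minus unstimulated difference was -0.20 (limma adjusted p = 0.866). The difference between the 2 responses was 0.55 and did not pass (limma adjusted p = 0.280).

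The second H2-DMa probe set, 1459872_x_at, ran the other way. It read 2.35, 1.58 and 1.78 on the naive-derived stimulated arrays, against 2.48, 2.57 and 2.62 on the memory-derived stimulated ones. It read 2.42 and 2.34 on the naive-derived unstimulated arrays, against 1.78, 1.89 and 2.18 on the memory-derived unstimulated ones. In a fit with all probe sets as separate features it was 0.61 higher with stimulation in memory-derived cells (limma adjusted p = 0.0322), where the first probe set was lower. Its origin difference in stimulated cells was -0.65 (limma adjusted p = 0.101). The mean of both probe sets gave 0.24 for origin in stimulated cells (limma adjusted p = 0.432) and -0.07 for stimulation in memory-derived cells (limma adjusted p = 0.760), so both H2-DMa calls belong to 1 of its 2 probe sets.

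**Figure D2:**
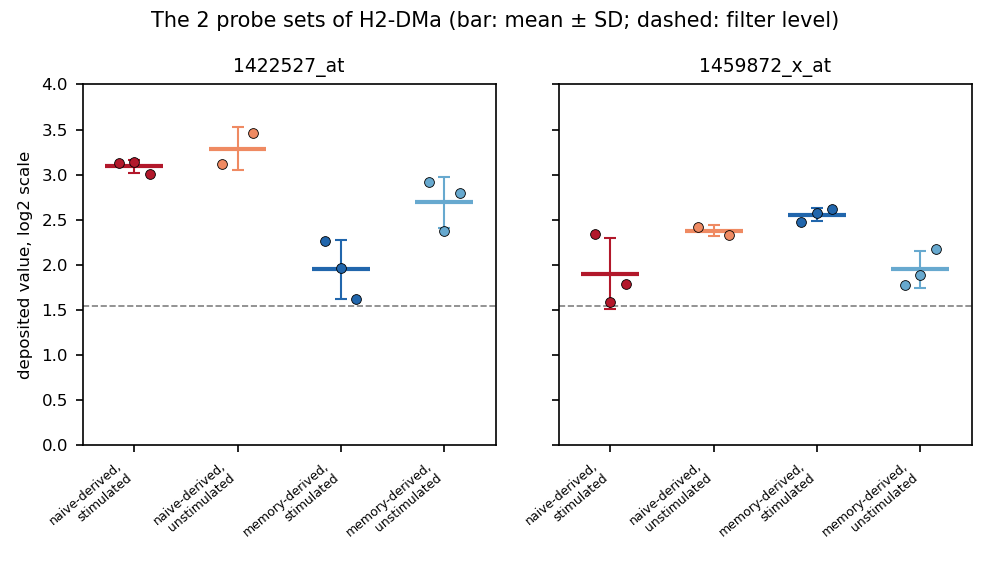
Deposited values (log2 scale, y axis) of the 2 H2-DMa probe sets on each array, by group (x axis), with the group mean and SD; the dashed line is the filter level. On the memory-derived stimulated arrays the left probe set is at its lowest (1.62 to 2.27) and the right one at its highest (2.48 to 2.62).

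Ciita, the regulator, was represented by 1421210_at and stayed between 1.59 and 2.14 on all 11 arrays. Its other 2 probe sets were below the filter level on every array. Its 4 group means lay between 1.65 and 1.87. The naive-derived minus memory-derived difference was 0.06 in stimulated cells (limma adjusted p = 0.888, 95% interval -0.28 to 0.41) and 0.21 in unstimulated cells (limma adjusted p = 0.407, 95% interval -0.17 to 0.60). Its stimulated minus unstimulated difference was -0.04 in naive-derived cells (limma adjusted p = 0.978) and 0.11 in memory-derived cells (limma adjusted p = 0.627).

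Counted over the 6 genes, 2 were higher in naive-derived than in memory-derived stimulated cells (Cd74 and H2-DMa), where 1.69% of all genes tested were higher, 2.01% were lower and 3.7% passed in either direction. In unstimulated cells 1 was higher (Cd74), where 10.9% of all genes tested were higher and 25.8% passed in either direction. With stimulation 1 was lower in memory-derived cells (H2-DMa), where 17.3% of all genes tested were lower and 31.6% passed in either direction. In naive-derived cells none of the 6 passed with stimulation, where 0.0135% of all genes did (2 genes by limma, with 1252 at an unadjusted p below 0.05). The response to stimulation did not pass as different between origins for any of the 6, where 2.71% of all genes did, 1.62% with a higher and 1.09% with a lower response in naive-derived cells. The median naive-derived minus memory-derived difference over the 6 genes was 0.58 in stimulated cells and 0.28 in unstimulated cells, beside a median over all genes tested of -0.01 in both. The 2 origin comparisons share no arrays, but each shares its arrays with the stimulation comparisons.

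**Figure D3:**
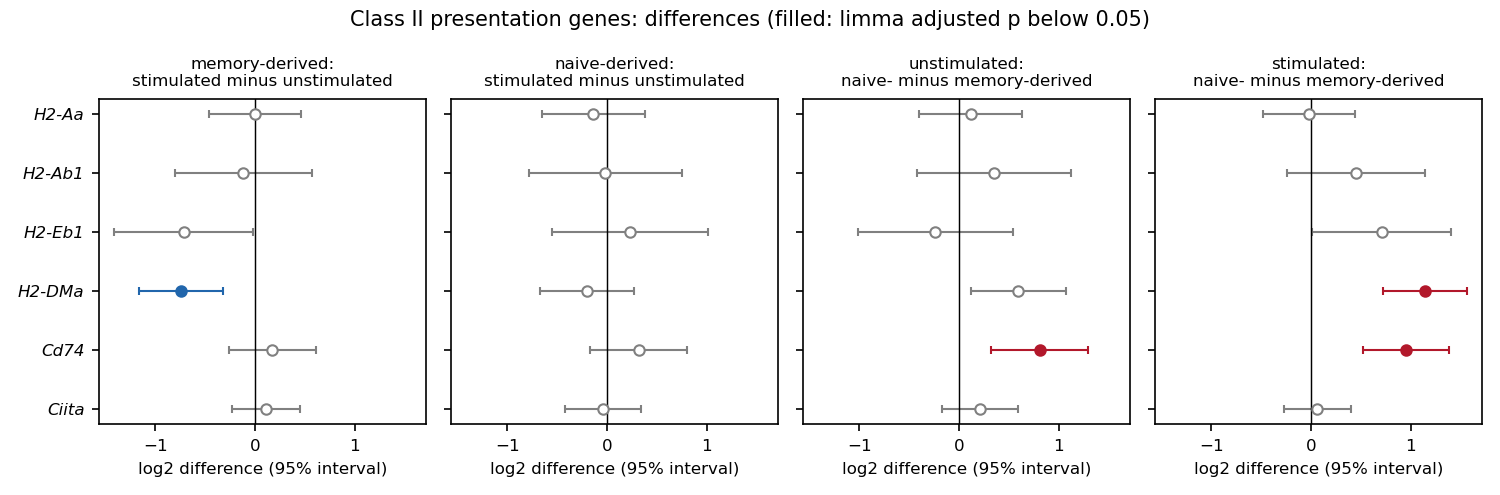
Fitted log2 differences (x axis, with 95% intervals) of the 6 class II genes (y axis) in the 4 comparisons; filled points passed at a limma adjusted p below 0.05, red for higher and blue for lower. Cd74 passes in both origin panels (0.81 and 0.95), H2-DMa in stimulated cells (1.14) and with stimulation in memory-derived cells (-0.74).

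The 6 genes did not move as 1 block over the arrays. The Pearson correlation over the 11 arrays, given as a description of points that share groups and experiments, was 0.64 between Cd74 and H2-DMa, 0.59 between H2-Ab1 and H2-DMa and 0.54 between H2-Ab1 and Cd74. H2-Aa correlated with none of the others above 0.14. Taken as deviations from the group means, Cd74 and H2-DMa correlated at 0.26, H2-Ab1 and H2-DMa at 0.53 and Cd74 and Ciita at -0.78.

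Of the other class II genes, 4 of 5 measured were tested. H2-Oa, the alpha chain of the H2-DM inhibitor H2-O, read 4.47, 4.75 and 4.76 on the naive-derived stimulated arrays, against 4.22, 3.98 and 3.96 on the memory-derived stimulated ones, which did not overlap. It was 0.61 higher in naive-derived stimulated cells (SE 0.13, limma adjusted p = 0.0293), but not with experiment as a replicate block (limma adjusted p = 0.0584), under control scaling (0.324), nor without replicate 2 or 3 of either stimulated group (limma adjusted p = 0.0881 to 0.118). H2-DMb2, a beta chain of H2-DM with a close copy in H2-DMb1 that its probes may share, was 0.53 higher in naive-derived than in memory-derived unstimulated cells (limma adjusted p = 0.0441), and the call held in 3 of 20 alternatives; of the fits without 1 array, it held only without memory-derived unstimulated replicate 1. The mean of its 3 probe sets differed more, at 0.86 (limma adjusted p = 0.00218) in unstimulated and 0.81 (limma adjusted p = 0.00567) in stimulated cells, where the representative gave 0.19 (limma adjusted p = 0.617). Tested as a feature of its own, 1 of the other probe sets was 0.98 higher in naive-derived unstimulated cells (limma adjusted p = 0.00697) and 1.24 higher in naive-derived stimulated cells (limma adjusted p = 0.00467). H2-Ea stayed at or below 1.79 on every array, and H2-Eb2 passed no comparison. H2-Ob, the beta chain of H2-O, was below the filter level on every array.

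The promoter factors were measured in full, and 2 of 7 passed in memory-derived cells, both lower with stimulation, where 17.3% of all genes tested were lower and 31.6% passed. Creb1, a factor of the X2 box shown above, read 4.15, 3.86 and 3.90 on the memory-derived stimulated arrays, against 5.54, 5.50 and 6.05 on the memory-derived unstimulated arrays. It fell by 1.72 (SE 0.16, limma adjusted p = 7.81e-05), or by 0.80 as the mean of its probe sets. Rfx5, the large subunit of the X box factor, fell by 0.49 (SE 0.11, limma adjusted p = 0.00641, and 0.0820 under control scaling). Creb1 was also lower in naive-derived than in memory-derived unstimulated cells, at -1.43 (limma adjusted p = 0.000489), or -0.53 as the mean of its probe sets. None of the 7 passed between origins in stimulated cells, where only 3.7% of all genes tested did. The Y box factor genes Nfya, Nfyb and Nfyc passed no comparison.

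Of 7 measured genes that induce or repress Ciita, 4 passed with stimulation in memory-derived cells, where 31.6% of all genes tested did. Ifngr1, a chain of the interferon gamma receptor, fell by 2.49 (SE 0.20, limma adjusted p = 3.83e-05), Irf1, a transcription factor induced by interferon gamma, fell by 1.83 (SE 0.20, limma adjusted p = 0.000169) and Jak1, a kinase of that receptor, fell by 1.13 (SE 0.21, limma adjusted p = 0.00254). Jak2, its other kinase, rose by 2.12 (SE 0.19, limma adjusted p = 5.78e-05). In unstimulated cells Ifngr1 was lower in naive-derived than in memory-derived cells, at -2.61 (limma adjusted p = 7.77e-05), and Jak2 was higher, at 2.08 (limma adjusted p = 0.000184). Jak1, Irf1 and Prdm1, a repressor of Ciita, passed in the same comparison at -1.01, -0.85 and 1.04, and each lost its call without naive-derived replicate 2 (limma adjusted p = 0.0927, 0.0577 and 0.0700). Irf1 and Prdm1 also lost it without naive-derived replicate 1 (both 0.121), and Prdm1 without memory-derived replicate 1 (0.0524) or 3 (0.0583).

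Ifng itself, the main inducer of Ciita outside the usual class II cells, was near the top of the array and did not pass in any comparison in the model of all 11 arrays. It read 13.42, 13.64 and 13.45 on the naive-derived stimulated arrays, against 12.73, 12.22 and 12.22 on the memory-derived stimulated ones. It read 13.10 and 13.21 on the naive-derived unstimulated arrays, against 12.55, 11.99 and 8.16 on the memory-derived unstimulated ones. The single low value was on the array that stood apart. The groups did not overlap by origin, with differences of 1.12 in stimulated cells (limma adjusted p = 0.574) and 2.26 in unstimulated cells (limma adjusted p = 0.107). Without the array that stood apart, Ifng was 1.12 higher in naive-derived than in memory-derived stimulated cells (SE 0.18, limma adjusted p = 0.00953) and 0.89 higher in unstimulated cells (SE 0.23, limma adjusted p = 0.0220), and both passed. The difference also passed in stimulated cells with only the groups compared (limma adjusted p = 0.0194), and in unstimulated cells with experiments 1 and 2 only (0.0421) and without memory-derived replicate 1 (3.08, limma adjusted p = 0.0344). Without the array that stood apart the stimulated minus unstimulated difference in memory-derived cells was 0.12 (limma adjusted p = 0.732), against 1.49 with it (limma adjusted p = 0.218).

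Genes of endosomal processing moved in both directions, 5 of 9 tested passing between origins in stimulated cells, where 3.7% of all genes tested did. Ctss, the protease that trims the invariant chain in B cells and dendritic cells, read 6.44, 6.96 and 6.34 on the naive-derived stimulated arrays, against 5.61, 5.60 and 5.46 on the memory-derived stimulated ones. It was 1.02 higher (SE 0.17, limma adjusted p = 0.00659, and 0.0588 under control scaling). Ctsl, the protease with that role in thymic epithelium, was 1.58 higher (SE 0.27, limma adjusted p = 0.00899), or 0.47 as the mean of its probe sets, which did not pass (limma adjusted p = 0.358). Ctsd, an aspartic protease of lysosomes, was lower, at -1.30 (limma adjusted p = 0.0108, and 0.0501 without memory-derived replicate 3). Marchf8, a ubiquitin ligase, was lower at -0.995 (limma adjusted p = 0.0138), and its call was lost without naive-derived replicate 3 or memory-derived replicate 1 or 3 (0.0512 to 0.0674). Ifi30, the lysosomal thiol reductase, was lower at -0.63 (limma adjusted p = 0.0488), a call that, of the fits without 1 array, held only without memory-derived unstimulated replicate 3.

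In unstimulated cells 3 of the 9 passed between origins, where 25.8% of all genes tested did. Ctsd was lower, at -2.30 (limma adjusted p = 0.000328), and Ifi30 was lower, at -0.98 (limma adjusted p = 0.00254). Ctsl was 1.47 higher (limma adjusted p = 0.00571), and did not pass without naive-derived replicate 1 (0.0671) or as the mean of its probe sets (0.54, limma adjusted p = 0.160). With stimulation, 4 of the 9 were lower in memory-derived cells, where 17.3% of all genes tested were: Ctsd at -1.45, Ctss at -0.76, Ifi30 at -0.67 and Ctsb at -0.42. The first 3 calls held in all 11 fits without 1 array, and the Ctsb call was lost without any 1 of the memory-derived arrays other than unstimulated replicate 2 (limma adjusted p = 0.0539 to 0.0937).

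**Figure D4:**
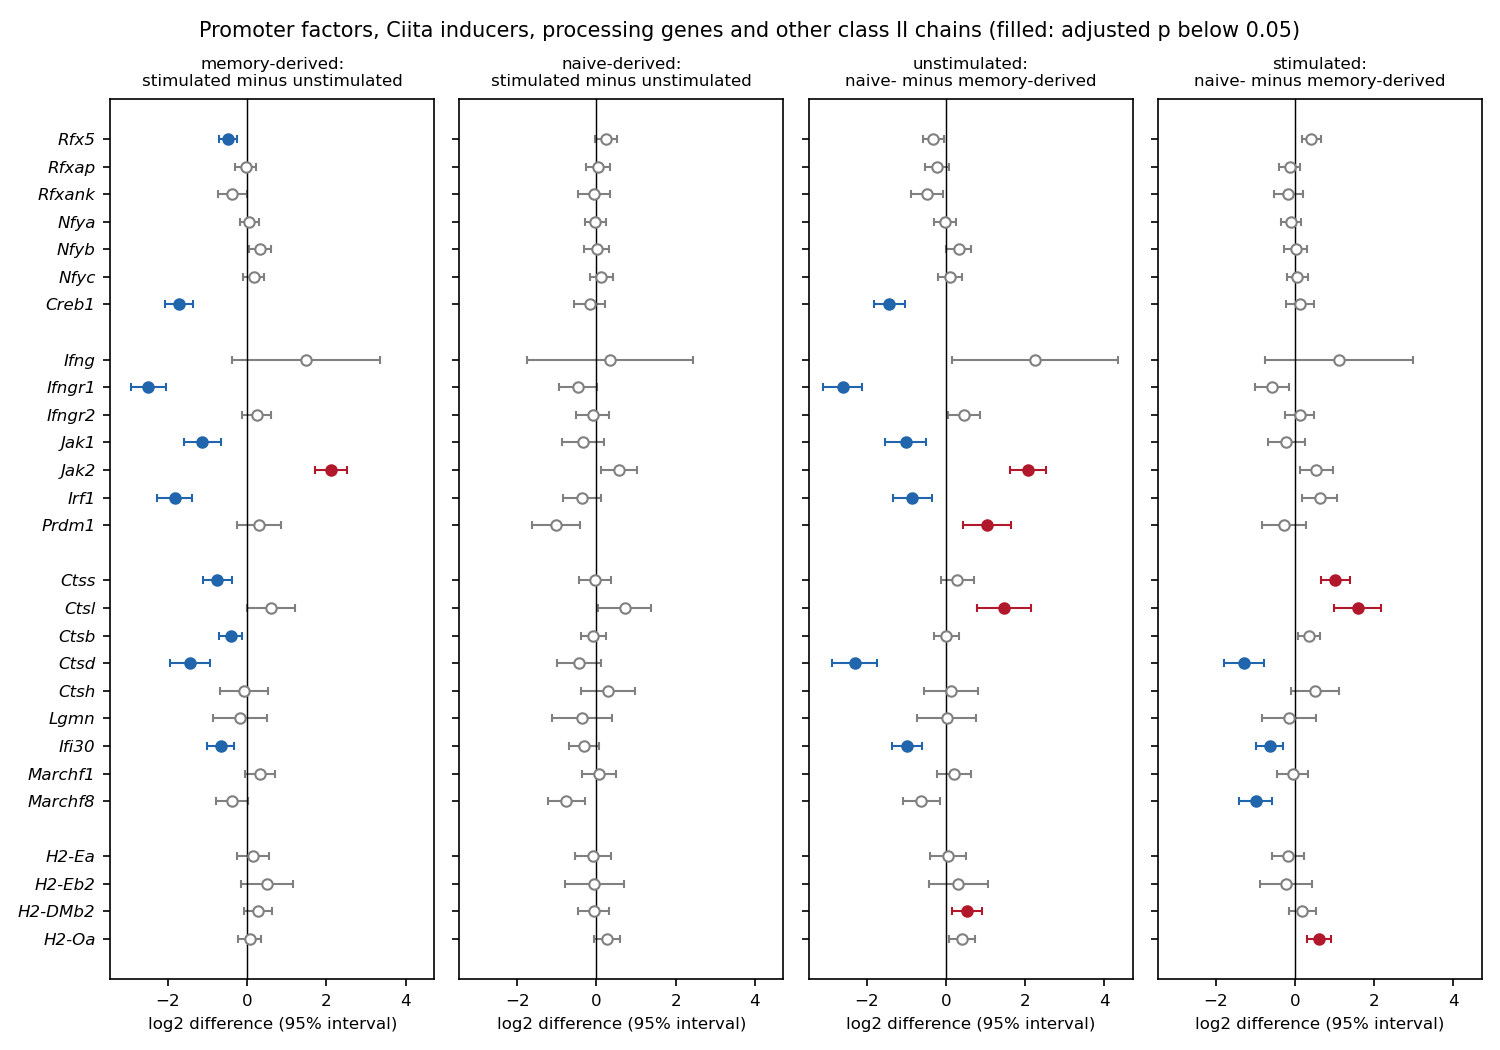
Fitted log2 differences (x axis, with 95% intervals) of promoter factors, Ciita inducers and repressor, processing genes and other class II chains (y axis) in the 4 comparisons; filled points passed at a limma adjusted p below 0.05, red for higher and blue for lower. No point is filled for stimulation in naive-derived cells, and in memory-derived cells Ifngr1 (-2.49) and Jak2 (2.12) lie farthest from 0.

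Because the feeders could have brought class II RNA, markers of the usual class II cells were read on the same arrays. Of 12 measured B cell markers, Cd79a and Ms4a1, which define the lineage, were below the filter level on all 11 arrays, and 9 were tested. Of these 9, Ighm and Cd22 (1.73 to 2.22) lay above it on all 11 arrays. The others, Pax5, Cd79b, Bank1, Fcrla, Ebf1, Fcer2a and Cr2, lay above it on 2 to 9 arrays. Ighm, the mu heavy chain, read 4.07, 4.79 and 4.68 on the naive-derived stimulated arrays, against 2.33, 2.46 and 2.79 on the memory-derived stimulated ones. It was 1.98 higher (SE 0.32, limma adjusted p = 0.00659). No other B cell marker of the 9 passed between origins in stimulated cells, where 1.69% of all genes tested were higher and 3.7% passed in either direction. In unstimulated cells Ighm read 4.54 and 4.85 on the naive-derived arrays, against 2.82, 3.13 and 4.22 on the memory-derived ones, a difference of 1.30 (limma adjusted p = 0.0221). Of the 9 markers 2 were higher in that comparison, where 10.9% of all genes tested were.

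Between origins Ighm differed in the same direction as Cd74, and its readings depended on the probe set. Of its 11 probe sets with a single symbol, 7 were tested, and 2 were higher in naive-derived stimulated cells and 3 in naive-derived unstimulated cells. Counted by gene, 1.69% and 10.9% of all genes tested were higher in these comparisons. The mean of all of them gave 0.38 (limma adjusted p = 0.160) in stimulated cells and 0.31 (limma adjusted p = 0.148) in unstimulated cells. The unstimulated call was also lost without either naive-derived array or memory-derived replicate 1 or 2 (limma adjusted p = 0.0555 to 0.141). Pax5, a B cell transcription factor, was 0.82 higher in naive-derived unstimulated cells (limma adjusted p = 0.0232), and not without naive-derived replicate 2 (0.190) or memory-derived replicate 1 (0.0707) or 2 (0.0568). With stimulation in memory-derived cells, where H2-DMa fell, the B cell receptor chain gene Cd79b read 1.15, 1.29 and 1.26 on the stimulated arrays, all below the filter level, against 1.98, 1.79 and 1.87 on the unstimulated ones. It fell by 0.65 (limma adjusted p = 0.00359), or by at least 0.34 with the stimulated arrays set at the filter level, and passed in 19 of 19 alternatives. Pax5 went the other way there, 0.59 higher with stimulation (limma adjusted p = 0.0465), a call that held in 4 of 20 alternatives. Of the 9 tested B cell markers 1 was thus higher and 1 lower, where 14.3% of all genes tested were higher and 17.3% lower. In the fit of all probe sets, 2 of the 7 tested Ighm probe sets were higher and 1 was lower in that comparison, the lower one at -1.32 (limma adjusted p = 0.0416). The part of these markers in the H2-DMa fall was not tested.

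Summed on the linear scale, the B cell markers came to 49.8 to 64.3 on the naive-derived stimulated arrays, against 33.4 to 38.1 on the memory-derived stimulated ones. The sums were 56.2 to 61.2 on the naive-derived unstimulated arrays, against 36.1 to 49.1 on the memory-derived unstimulated ones. Without Ighm they were 30.9 to 36.7 on the naive-derived stimulated arrays, against 28.3 to 31.1 on the memory-derived stimulated ones, and 32.3 to 33.0 on the naive-derived unstimulated arrays, against 27.5 to 30.5 on the memory-derived unstimulated ones. The B cell sum was thus higher in the naive-derived groups, as Cd74 was, mostly through Ighm. Array by array the order differed. Memory-derived unstimulated replicate 3 had the highest memory-derived sum (49.1) and the lowest Cd74 of all arrays (2.09). The part of the B cell sum in the Cd74 and H2-DMa differences was not tested.

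Of 14 tested markers of the other class II cells, 3 passed as lower in naive-derived cells, where Cd74 was higher. Others had higher means there. The 15 measured myeloid and dendritic cell markers summed to 150.5 to 207.6 on the naive-derived stimulated arrays, against 245.4 to 248.2 on the memory-derived stimulated ones, and to 160.9 to 199.1 on the naive-derived unstimulated arrays, against 267.8 to 303.2 on the memory-derived unstimulated ones. On the linear scale the markers with the highest values over all arrays, Cst3, Itgax, Fcer1g and Cd68, weigh most in these sums. In unstimulated cells Csf1r, Adgre1, Lyz2, Flt3, Zbtb46, Csf3r, Fcgr1 and Mrc1 had higher means in the naive-derived group. In stimulated cells Itgam, Flt3, Csf3r and Adgre1 did. None of these differences passed. Siglech, a marker of plasmacytoid dendritic cells, was below the filter level on all arrays. In each origin comparison 3 of the 14 tested were lower in naive-derived cells and none higher, where 14.9% of all genes tested were lower in unstimulated and 2.01% in stimulated cells. The median difference over the 14 was 0.01 in unstimulated cells and -0.15 in stimulated cells, beside -0.01 over all genes tested in both. In unstimulated cells Itgax, which activated CD8+ T cells can also express, was lower at -1.77 (limma adjusted p = 0.00123), Cd68 at -1.67 (limma adjusted p = 0.00180) and Cd14 at -1.20 (limma adjusted p = 0.0138, and 0.152 without naive-derived replicate 1). In stimulated cells the differences were -1.23 for Itgax, -1.30 for Cd68 and -1.21 for Cd14, with adjusted p of 0.0164, 0.0138 and 0.0313. Among fits without 1 array, the Itgax call was lost without naive-derived replicate 2 or 3 or memory-derived replicate 1 or 3 (limma adjusted p = 0.0608 to 0.0729), the Cd68 call without memory-derived replicate 1 or 2 (0.0624 and 0.0556) and the Cd14 call without any 1 stimulated array except naive-derived replicate 1 (0.0819 to 0.110).

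**Figure D5:**
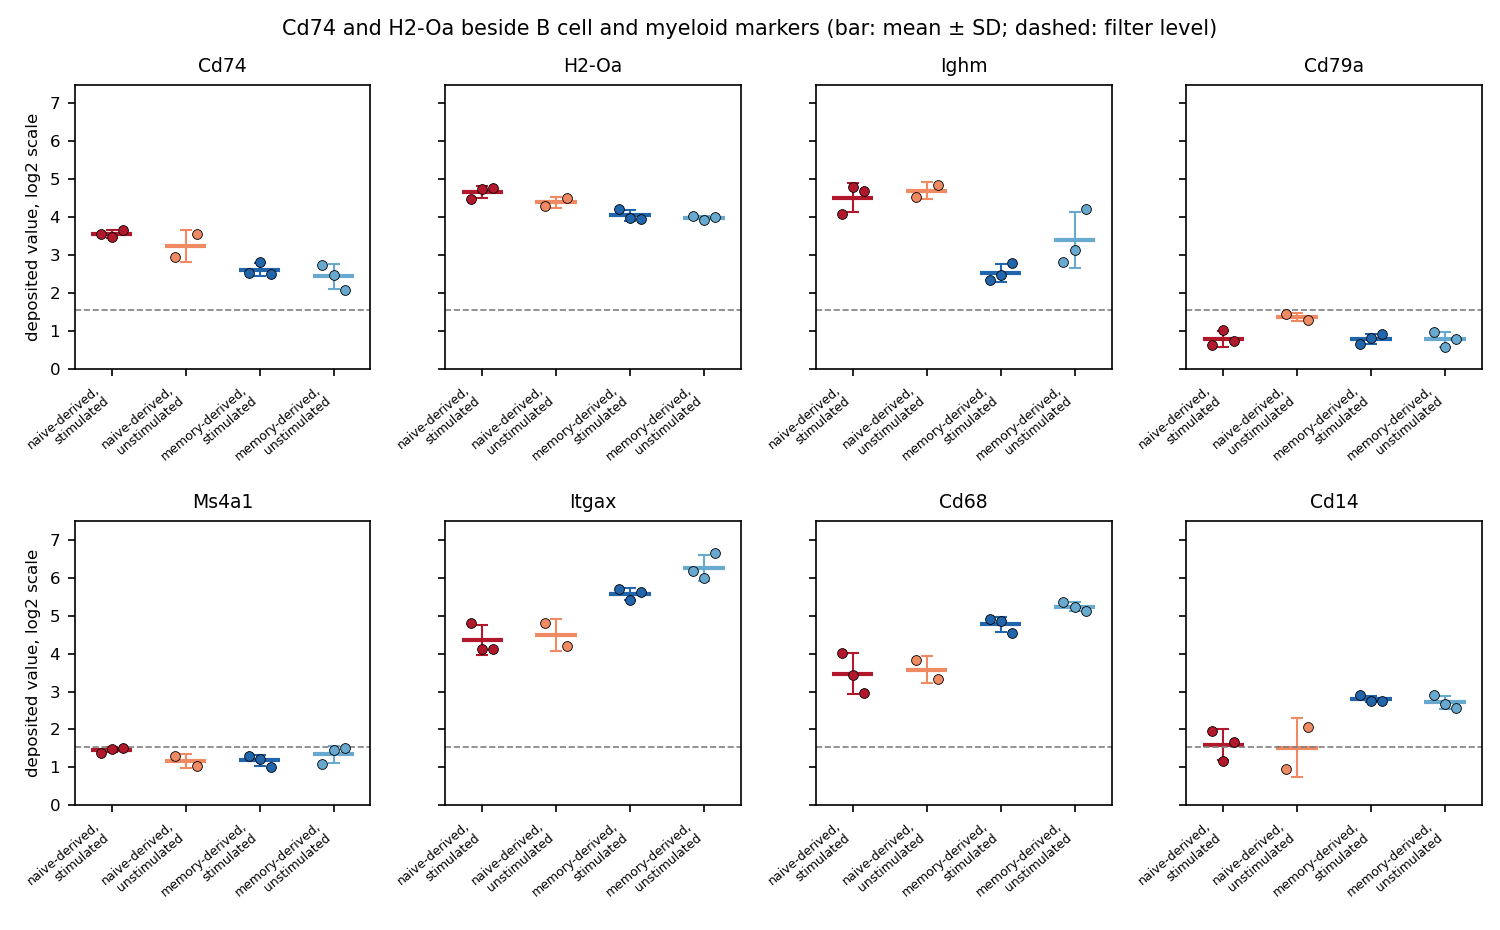
Deposited values (log2 scale, y axis) of Cd74, H2-Oa and cell markers on each array, by group (x axis), with the group mean and SD. The B cell markers are Ighm, Cd79a and Ms4a1. The myeloid markers Itgax, Cd68 and Cd14 are those that passed between origins, and the other myeloid markers are not drawn. The dashed line is the filter level of 1.54. Cd79a and Ms4a1 stay below the line on all arrays, Ighm is higher on the naive-derived stimulated arrays (4.07 to 4.79) than on the memory-derived stimulated ones (2.33 to 2.79), and Itgax and Cd68 are lower.

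Markers of CD8 T cells and NK cells also differed between the groups. Cd8a, the alpha chain of CD8, was 1.23 higher in naive-derived than in memory-derived stimulated cells (limma adjusted p = 0.00450) and 1.04 higher in unstimulated cells (limma adjusted p = 0.00521), in 20 of 20 alternatives each. Cd8b1 (0.60, limma adjusted p = 0.00997) and Cd2 (0.81, limma adjusted p = 0.0169) also passed in stimulated cells; the Cd8b1 call was lost without memory-derived replicate 1 (0.0532) and the Cd2 call without any 1 stimulated array except naive-derived replicate 1 (0.0527 to 0.0697), and both were lost with control scaling and with experiments 1 and 2 only. With stimulation in memory-derived cells 4 of the 8 were lower, where 17.3% of all genes tested were: Cd8a (-0.78), Cd3g (-0.76), Cd3d (-0.55) and Cd8b1 (-0.31), of which Cd8b1 (limma adjusted p = 0.0424) held in 4 of 20 alternatives. The 3 measured NK cell markers summed to 11.7 to 23.6 on the naive-derived stimulated arrays, against 166.1 to 207.4 on the memory-derived stimulated ones, and to 31.5 to 34.5 on the naive-derived unstimulated arrays, against 145.6 to 211.8 on the memory-derived unstimulated ones. Only 1 of the 3 lay above the filter level on all arrays, and the marker with the highest values weighs most in these sums. Eomes, a transcription factor of NK cells and of memory CD8+ T cells, was lower in naive-derived cells. It was lower by -3.77 in stimulated (limma adjusted p = 4.61e-05) and -2.50 in unstimulated cells (limma adjusted p = 0.000474). Klra8 was lower in unstimulated cells only, at -1.36 (limma adjusted p = 0.0322), a call that held in 14 of 19 alternatives. Of all genes tested, 2.01% were lower in stimulated and 14.9% in unstimulated cells. The part of these differences in those of the class II genes was not tested.

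The actin and Gapdh controls for RNA quality went opposite ways between origins in stimulated cells. They therefore do not settle whether quality differed between the groups. The 3′ minus 5′ difference of the actin control probe sets, which grows with degraded or short labelled RNA, was 1.93 to 2.60 on the naive-derived stimulated arrays, against 1.43 to 1.73 on the memory-derived stimulated ones. It was 1.54 to 1.59 on the naive-derived unstimulated arrays, against 0.88 to 1.17 on the memory-derived unstimulated ones. Its part in the differences of Cd74 and H2-DMa was not tested. For the Gapdh control probe sets the same difference was lower on the naive-derived stimulated arrays (-1.82 to -1.48) than on the memory-derived stimulated ones (-1.43 to -1.38), without overlap. It overlapped in unstimulated cells, at -1.65 to -1.42 on the naive-derived arrays, against -1.51 to -1.29 on the memory-derived ones.

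All other genes tested were ranked by Pearson correlation over the 11 arrays with the mean centred value of H2-Aa, H2-Ab1, H2-Eb1 and Cd74. Among these class II genes the correlation was 0.54 between H2-Ab1 and Cd74 and at most 0.21 in the other pairs. The ranking therefore refers to their mean and to no single class II gene. The 10 highest were Gm2a (0.92), Asb6 and Gtf3c5 (both 0.89), Wls (0.89), Gm8369 (0.88), H3c7 (0.88), Sh3bp5, Gjc1 and Vps54 (all 0.87) and Rpl39 (0.87). Gm2a, which encodes the GM2 activator protein of lysosomes, ranged between 6.31 and 6.62 on the naive-derived arrays, against 5.36 and 6.09 on the memory-derived ones. The 5 lowest were Pawr (-0.89), Cd55 (-0.87), Svil (-0.87), Pla2g15 and Pja1 (both -0.86). Cd55, which encodes a complement regulator, ranged between 1.61 and 2.27 on the naive-derived arrays, against 3.39 and 5.06 on the memory-derived ones. The 11 points share groups and experiments, so these coefficients describe the arrays and carry no test.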

How the data were processed

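RNA of 11 samples of pmel-1 CD8+ T cells was labelled with a 3′ kit per the labels' protocols and hybridised to Affymetrix arrays. Affymetrix Expression Console was used, per the submitters' processing notes. The deposited values were taken as log10 values: the authors' log base and summarization method are not given in the sources used here, and the base was inferred from the range. All arrays hold the same sorted values, so the authors had quantile normalized them. Depth is not defined for arrays, and their number limits the precision.

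The values were multiplied by 3.32 to a log2 scale. Of 45101 probe sets, 64 were controls, 34945 had 1 symbol in GEO's platform annotation, 932 several and 9160 none; 34741 gene identifiers matched the RefSeq table and 0 symbols changed. Each gene was represented by its single-symbol probe set with the highest mean, if above the 40th percentile on at least 2 arrays. With limma 3.58.1 (R 4.3.3), 1 model of the 4 groups took in every array, with 7 residual degrees of freedom and 3.86 prior ones, and p-values were adjusted by Benjamini-Hochberg over 14795 genes, with 0.05 as the threshold. Calculations were tested on simulated data. Figures used matplotlib 3.10.9.

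The members and lists were chosen with earlier results of these data known. All members were named, as were genes of the lists on other class II chains, promoter factors, Ciita inducers and processing, markers above the filter level on at least 2 arrays, and the 10 most and 5 least alike genes. Markers below the filter level are named after their values were seen. Some listed genes are not reported here.

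The labels' sample descriptions give each array's experiment, so the number pairs arrays. Deviations from group means correlated at a median of 0.03 over 15 pairs of the same experiment (-0.07 to 0.11) and -0.00361 over 30 pairs of different ones. Alternatives were control scaling, filters, probe set choice, prior, a replicate block, fewer groups or experiments, and leaving out each array.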

Additional observations from a re-analysis of the deposited data

Results flagged for a closer look

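None of the 6 class II genes responded differently to stimulation by origin past the test, but 5 genes of the listed regulators did, each flagged by the test of the difference itself (naive-derived response minus memory-derived response). Of 7 promoter factors 2 had a higher response in naive-derived cells. Of 7 measured inducers and repressor of Ciita, 2 had a higher and 1 a lower one, where 2.71% of all genes tested passed in either direction. The difference was 1.55 for Creb1 (limma adjusted p = 0.0207, or 0.70 as the mean of its probe sets, limma adjusted p = 0.0426), 2.02 for Ifngr1 (limma adjusted p = 0.0171), 1.47 for Irf1 (limma adjusted p = 0.0365), -1.54 for Jak2 (limma adjusted p = 0.0268) and 0.72 for Rfx5 (limma adjusted p = 0.0440). With experiment as a replicate block none of the 5 passed (limma adjusted p = 0.0568, 0.0520, 0.0772, 0.0568 and 0.0904 in that order), with differences of 1.51, 2.08, 1.39, -1.60 and 0.73. Of 11 fits that left out 1 array, the call held in 6 for Creb1, 8 for Ifngr1, 3 for Irf1, 4 for Jak2 and 2 for Rfx5, and without naive-derived unstimulated replicate 1 or 2 it was lost for all 5 (limma adjusted p = 0.0595 to 0.163).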

How the results depend on the processing

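The direction of the Cd74 and H2-DMa calls was kept in every alternative, but their calls were not. No alternative took the second H2-DMa probe set alone, which ran the other way. Of 574 member alternatives, 551 kept the side of the threshold, 19 lost a call and 4 gained one. Members passing for origin in stimulated cells numbered 1 under control scaling, 1 with the mean of all probe sets and 0 with experiments 1 and 2 only, and 1 to 2 without 1 array. For origin in unstimulated cells they numbered 0 under control scaling, 0 with only the groups compared, 0 with experiments 1 and 2 only, 2 with a 60th percentile filter, 2 with the mean of all probe sets, and 0 to 2 without 1 array. For stimulation in memory-derived cells they numbered 0 under control scaling, 0 with the mean of all probe sets and 0 with experiments 1 and 2 only, and 0 to 2 without 1 array. For stimulation in naive-derived cells and for the difference in response they were 0 throughout. The replicate block changed no member's call (1 member in memory-derived cells, 1 in unstimulated and 2 in stimulated origin comparisons), but lowered the genes with a different response to 26, from 401. That count was 135 under control scaling, 49 with experiments 1 and 2, 174 without a filter, 1064 with the 60th percentile filter and 1120 with an intensity trend, and without 1 array it ran between 0 (without naive-derived unstimulated replicate 1) and 1505 (without memory-derived unstimulated replicate 2). Origin in unstimulated cells gave 1946 and 1843 genes without naive-derived unstimulated replicate 1 or 2, and origin in stimulated cells 287 to 322 without memory-derived stimulated replicate 1, 2 or 3 or naive-derived stimulated replicate 3. Calls under control scaling numbered 2991 of 4675 for stimulation in memory-derived cells, 2353 of 3819 for origin in unstimulated cells and 362 of 548 in stimulated cells, where 33.4% of calls were higher, against 45.6% (46.7% against 59.6% for the difference in response). With experiments 1 and 2 only, 2755 and 258 genes passed for stimulation in memory-derived cells and origin in stimulated cells, and 2376 passed for origin in unstimulated cells with only those groups. Genes of the lists that are no members, and Ifng and H2-DMb2 in all comparisons, were run through the same alternatives after the data were seen: for those that passed over all arrays, 865 of 1073 such fits kept the call and 208 lost it. Restriction to the groups compared cannot give the difference in response. The causes were not tested. The H2-DMa differences turn on the probe set chosen, and signal near the filter level limits H2-Aa, H2-Eb1 and Ciita.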
